A study of Mus musculus with 12 samples.

Results

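The pyruvate dehydrogenase complex, the mitochondrial enzyme that turns pyruvate into acetyl-CoA, was followed here in liver RNA through 10 genes: the kinases Pdk1, Pdk2, Pdk3 and Pdk4, the phosphatases Pdp1 and Pdp2, and the subunits Pdha1, Pdhb, Dlat and Pdhx. They were chosen by name, as the genes of the complex core and of the enzymes that switch it, and all 10 were found among the 56748 genes of the count table, of which 29605 had at least 1 count. Total RNA from 12 mouse livers was sequenced and reads were counted per gene. The WT group was 4 livers labelled as a triple floxed control for Cpt1a, Cpt1b and Cpt2, the SKO group was 4 livers with liver-specific knockout of Cpt2, and the DKO group was 4 livers with liver-specific double knockout of Atf3 and Cpt2. For another assay the study describes controls floxed for Atf3 and Cpt2 instead, and whether the WT livers came from the same line as the knockouts is not given in the sources used here, so line and genotype cannot be told apart in the comparisons with WT. Cpt2 (carnitine palmitoyltransferase 2) completes the import of long-chain fatty acids for oxidation in mitochondria, and Atf3 is a stress-induced transcription factor. All mice, controls included, had been fasted for 24 h. The study deleted genes with Cre under the albumin promoter, which is active in hepatocytes, and which cells lost the genes was not tested here. Ages were not analysed here, and the study describes the sequenced mice as male. Nothing in the labels says which livers shared a litter, so p-values rest on the spread between these livers, taken as independent.

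The complex has a heterotetrameric pyruvate dehydrogenase, E1, built from Pdha1 (alpha) and Pdhb (beta), an acetyltransferase core, E2, encoded by Dlat, and an E3-binding protein, Pdhx, that docks the shared dihydrolipoamide dehydrogenase Dld. Phosphorylation of the E1 alpha subunit by the 4 Pdk enzymes switches the complex off, and the phosphatases Pdp1 and Pdp2 switch it on. In fasted liver the complex is known to be held down, which spares pyruvate for glucose synthesis, and Pdk4 is the kinase best known to be induced by fasting and by fatty acids.

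Pdk4 mRNA was far higher in both knockouts than in WT livers, while Pdk1 and Pdk2 were lower in SKO livers and none of the 4 core subunits was called with edgeR's composition scaling. Levels are given as CPM, each gene's count scaled to the library total and to edgeR's composition factor. Pdk4 averaged 7.98 ± 3.11 CPM in WT livers, 734 ± 175 CPM in SKO livers and 668 ± 411 CPM in DKO livers (SD, n = 4 each), so the mean was 92.0-fold and 83.7-fold that of WT. Of the 9 genes that could be tested, SKO livers differed from WT livers in 4 (32.1% of all genes tested were called) and DKO livers in 1 (10.5% of all genes), and DKO livers differed from SKO livers in 0 (0.0209%). One DKO liver, replicate 4, stood apart from the other 3 in Pdk4, Pdk1, Pdk2 and Pdp2, and the DKO comparisons are given with and without it.

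Promoter sequence is printed for Pdk4, whose level differed most, and for Pdk2, Pdk1 and Pdp2, which were called lower in SKO livers, because these 4 genes carry the comparisons. The windows run from 250 bases before to 50 after the first RefSeq start (GRCm38.p6, whereas the gene positions given further on are those of the count table) and are written 5′ to 3′ on the gene's strand. Pdk4 lies on the minus strand at chr6:5496229-5496528, Pdk2 on the minus strand at chr11:95041322-95041621, Pdk1 on the plus strand at chr2:71872974-71873273 and Pdp2 on the plus strand at chr8:104591222-104591521. Capitals mark CACGTG.
Pdk4: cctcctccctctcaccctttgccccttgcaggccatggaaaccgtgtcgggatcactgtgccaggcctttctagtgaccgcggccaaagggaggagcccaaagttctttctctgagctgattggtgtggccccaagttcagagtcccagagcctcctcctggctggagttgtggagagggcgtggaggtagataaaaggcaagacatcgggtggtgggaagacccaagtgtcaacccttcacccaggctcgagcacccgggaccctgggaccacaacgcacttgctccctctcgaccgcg
Pdk2: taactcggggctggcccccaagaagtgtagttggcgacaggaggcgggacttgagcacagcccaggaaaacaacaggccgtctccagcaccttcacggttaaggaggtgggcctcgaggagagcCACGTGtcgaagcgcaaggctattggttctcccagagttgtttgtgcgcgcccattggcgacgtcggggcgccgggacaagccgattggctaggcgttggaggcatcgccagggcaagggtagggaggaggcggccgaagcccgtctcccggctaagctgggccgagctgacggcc
Pdk1: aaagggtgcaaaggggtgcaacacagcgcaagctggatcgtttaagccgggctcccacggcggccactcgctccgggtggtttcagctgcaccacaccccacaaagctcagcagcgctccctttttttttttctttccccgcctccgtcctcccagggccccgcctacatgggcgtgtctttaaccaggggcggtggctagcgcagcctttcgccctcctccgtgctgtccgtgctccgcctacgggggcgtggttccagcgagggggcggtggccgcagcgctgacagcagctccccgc
Pdp2: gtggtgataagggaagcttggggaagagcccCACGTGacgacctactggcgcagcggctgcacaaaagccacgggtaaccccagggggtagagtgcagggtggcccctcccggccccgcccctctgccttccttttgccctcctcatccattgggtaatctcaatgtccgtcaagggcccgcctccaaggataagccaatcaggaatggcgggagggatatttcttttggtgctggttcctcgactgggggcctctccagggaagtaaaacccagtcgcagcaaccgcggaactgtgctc

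Both strands of each window were searched for 8 motifs: AGGTCA (nuclear receptor half-site), TCAAGGTCA (ERR), GTAAACA (forkhead), TGACGTCA (CRE), TGANTCA (AP-1), TGATGNAA (C/EBP-ATF composite), ACGTG (HIF core) and CACGTG (E-box), the last of which contains the HIF core on both strands. The Pdk2 and Pdp2 windows held CACGTG, at -126 to -121 and at -219 to -214 from the start, and the motif was present in 7.15% of 32851 RefSeq promoter windows of the same length. Pdk3 and Pdhb held the HIF core alone, at -53 to -49 and -248 to -244, as did 19.6% of all windows with or without the E-box. The Pdk4, Pdk1, Pdha1, Dlat and Pdhx windows held none of the 8, and the shares over all windows were 16.3% for AGGTCA, 0.423% for TCAAGGTCA, 3.65% for GTAAACA, 1.79% for TGACGTCA, 7.81% for TGANTCA and 3.97% for TGATGNAA. A match describes letters only, and the motif CACGTG was added after the others had been seen. A RefSeq window was found for 9 of the 10 genes, Pdp1 being the other. Pdk2 and Pdk1 each had a second RefSeq start, whose windows held none of the 8 motifs.

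Total counts ranged from 14710304 to 20030055 per liver, so that 3 counts corresponded to 0.145 to 0.196 CPM, with such limits covering counting error only. Cpt2 mRNA ranged over 199 to 252 CPM in WT livers, 108 to 157 CPM in SKO livers and 101 to 127 CPM in DKO livers. For Atf3, WT livers had 17 to 39 counts, SKO livers 259 to 1056, and DKO livers 164, 177, 265 and 5 in replicates 1 to 4, and a count over the whole gene does not test the deleted part. Xist counts were 18063 in SKO replicate 3 and 20855 in DKO replicate 4 against at most 19 elsewhere, and Y-linked counts were 2 and 0 in those livers against 2741 to 4294 in the other 10, so these livers go against the description as male. Summed hepatocyte markers (6 of 6 above 1 CPM) reached 78798 to 97500 CPM in WT livers, 44515 to 73998 CPM in SKO livers and 47575 to 101071 CPM in DKO livers, the highest DKO value being replicate 4. Endothelial, lymphocyte and erythroid marker sums overlapped between the groups. Summed macrophage markers were 192 to 382 CPM in WT livers and 191 to 415 CPM in SKO livers, and 115, 179, 167 and 390 CPM in DKO replicates 1 to 4, so that DKO replicates 1 to 3 were below all WT livers and replicate 4 was above them. Summed stellate markers were 182 to 218 CPM in WT livers against 249 to 339 CPM in SKO livers and 235 to 294 CPM in DKO livers. Summed cholangiocyte markers were 27.9 to 33.5 CPM in WT livers against 7.37 to 14.3 CPM in SKO livers and 9.61 to 31.6 CPM in DKO livers. Fewer cells of a type and less RNA per cell cannot be told apart in such tissue samples.

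Pdk4 (ENSMUSG00000019577, chr6:5483351-5496309, minus strand, as in the count table) was at 6.82, 5.72, 12.6 and 6.80 CPM in the 4 WT livers. It was at 805, 693, 925 and 514 CPM in the SKO livers and at 843, 1003, 756 and 70.8 CPM in the DKO livers. Every knockout liver was above every WT liver, and DKO replicate 4, the lowest of them, was 8.87-fold above the WT mean and 12.3-fold below the mean of the other 3 DKO livers (868 ± 125 CPM, SD, n = 3). The log2 fold change was 6.54 ± 0.31 (SE) in SKO against WT (adjusted p = 2.9e-07) and 6.40 ± 0.77 in DKO against WT (adjusted p = 0.00532), from the quasi-likelihood test of edgeR, with p-values adjusted by Benjamini-Hochberg over all genes. Among genes called higher, the rise ranked 8th of 2378 in SKO and 2nd of 876 in DKO livers. The calls stood in each of 14 alternative analyses of either comparison, with an adjusted p of at most 1.1e-04 and 0.0301. Per kilobase of gene length, Pdk4 ranked 7669th of 21970 protein-coding genes in WT livers, 200th in SKO livers and 225th in DKO livers.

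Pdk4 transcript is abundant in muscle and adipose tissue, so markers of both were checked beside it. None of 5 skeletal muscle markers (Acta1, Ckm, Mb, Myh4, Tnnt3) and none of 4 adipocyte markers (Adipoq, Cfd, Plin1, Lep) reached 1 CPM in any liver, with sums of at most 0.254 and 0.670 CPM.

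**Figure D1:**
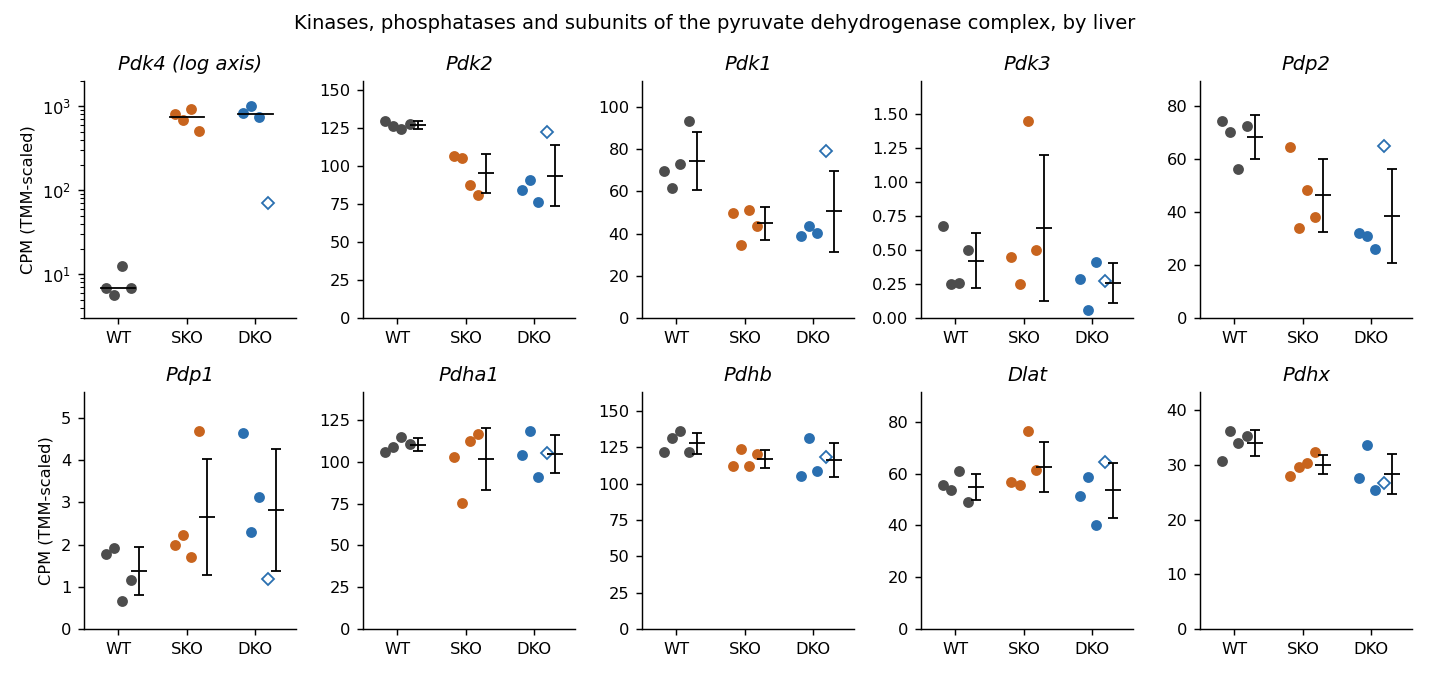
CPM of the 10 genes in each of the 12 livers, with WT in grey, SKO in orange and DKO in blue. Points are livers and the open diamond is DKO replicate 4. Black marks are mean ± SD (n = 4), except for Pdk4, which has a log axis and the median as its line. Pdk4 was at 5.72 to 12.6 CPM in WT and 514 to 925 CPM in SKO livers, and DKO replicate 4 (70.8 CPM) lay between the groups.

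The 2 kinases that predominate in WT liver, Pdk2 and Pdk1, were called lower in SKO livers. In DKO livers they were called only without replicate 4. Pdk2 (ENSMUSG00000038967, chr11:94917084-94932180, minus strand), the kinase most widely expressed across tissues, was at 129.7, 126, 124 and 127 CPM in WT livers. It was at 107, 105, 87.2 and 80.9 CPM in SKO livers and at 84.4, 90.9, 76.2 and 122 CPM in DKO livers. All 8 knockout livers were below all 4 WT livers, although DKO replicate 4 was at 0.962 of the WT mean. The log2 fold change was -0.40 ± 0.13 in SKO livers (adjusted p = 0.0291, lower in 4 of 4, a call lost in 8 of 14 alternatives) and -0.43 ± 0.15 in DKO livers (adjusted p = 0.0956, not called). An antisense lncRNA, Gm11513, overlaps Pdk2 on the plus strand and held 25 counts over all livers.

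Pdk1 (ENSMUSG00000006494, chr2:71703568-71734202, plus strand), known as a kinase induced under low oxygen, was at 69.6, 61.4, 72.9 and 93.6 CPM in WT livers. SKO livers gave 49.8, 34.7, 51.4 and 43.5 CPM and DKO livers 39.1, 43.6, 40.2 and 79.4 CPM. The SKO livers were all below the WT livers, and DKO replicates 1 to 3 were too, while replicate 4 was inside the WT range. Pdk1 fell by 0.72 ± 0.16 on the log2 scale in SKO livers (adjusted p = 0.00574), a call kept in 14 of 14 alternatives, and its value in DKO livers was -0.54 ± 0.24 (adjusted p = 0.167). Pdk3 (ENSMUSG00000035232, chrX:92808213-92875807, minus strand), an inducible kinase, had 4 to 13 counts in WT livers, 5 to 28 counts in SKO livers and 1 to 8 counts in DKO livers and was too low for the tests.

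Among the phosphatases, Pdp2 (ENSMUSG00000048371, chr8:105318083-105325658, plus strand), the form abundant in liver, was at 74.3, 70.2, 56.2 and 72.3 CPM in WT livers. It was at 64.5, 34.0, 48.1 and 38.1 CPM in SKO livers and at 32.0, 31.1, 25.9 and 64.9 CPM in DKO livers. One SKO liver and DKO replicate 4 reached into the WT range. The log2 fold change was -0.55 ± 0.19 in SKO livers (adjusted p = 0.0454) and -0.82 ± 0.27 in DKO livers (adjusted p = 0.0790, not called by edgeR). Pdp1 (ENSMUSG00000049225, chr4:11958184-11966452, minus strand), the calcium-stimulated phosphatase of muscle and brain, was near the limit of these libraries, with 10 to 34 counts in WT livers, 31 to 84 counts in SKO livers and 22 to 96 counts in DKO livers. Its log2 fold changes were 0.95 ± 0.41 (adjusted p = 0.0991) and 1.05 ± 0.46 (adjusted p = 0.161), neither called.

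The 4 core subunits were expressed at steady levels in WT livers. With edgeR's composition scaling 0 of 4 were called in either knockout, where 32.1% (SKO) and 10.5% (DKO) of all genes tested were called. Pdha1 (ENSMUSG00000031299, chrX:158905205-158921409, minus strand) gave 106, 109, 115 and 111 CPM in WT livers, 103, 75.3, 112 and 117 in SKO livers and 104, 118, 91.0 and 106 in DKO livers. Pdhb (ENSMUSG00000021748, chr14:14296748-14303777, plus strand) gave 122, 132, 136 and 122 CPM in WT livers, 112, 124, 112 and 120.5 in SKO livers and 105, 131, 109 and 118 in DKO livers. In both genes the groups overlapped, with log2 fold changes of -0.10 ± 0.14 and -0.11 ± 0.11 in SKO livers (adjusted p = 0.631 and 0.462). Map3k15 overlaps Pdha1 on the other strand and held 349 counts over all livers, and the strand setting of the counting is not given in the sources used here.

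Dlat (ENSMUSG00000000168, chr9:50545933-50571080, minus strand) gave 55.7, 53.8, 60.9 and 49.2 CPM in WT livers, 56.8, 55.6, 76.5 and 61.6 in SKO livers and 51.3, 58.6, 40.1 and 64.6 in DKO livers. Pdhx (ENSMUSG00000010914, chr2:102851420-102903858, minus strand) gave 30.7, 36.1, 33.9 and 35.3 CPM in WT livers, 27.9, 29.7, 30.4 and 32.3 in SKO livers and 27.6, 33.7, 25.5 and 26.7 in DKO livers. Dlat differed from WT by 0.20 ± 0.13 in SKO livers and -0.02 ± 0.15 in DKO livers, and Pdhx by -0.16 ± 0.11 and -0.25 ± 0.11 on the log2 scale, with adjusted p between 0.178 and 0.939. These differences were not called with 4 livers per group, which does not show the levels to be equal.

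In SKO against WT, then, 4 of 9 tested genes were called, 1 higher and 3 lower, where 32.1% of the 14261 genes tested were called, 16.7% higher and 15.4% lower. Livers did not overlap for 3 of the 9 (Pdk4, Pdk2, Pdk1), against 33.0% of all genes. The lower hepatocyte marker sums of the SKO livers (4 of 6 markers called lower) accompanied the lower Pdk1, Pdk2 and Pdp2 values. Of 4 cholangiocyte markers 2 were lower, of 7 macrophage and 6 stellate markers 1 each was higher, and of 4 erythroid markers 2 were higher and 1 lower. The part of these cells in the result was not tested. The median log2 fold change was -0.11 over the 9 genes and 0.03 over all genes. The Pdk2 and Pdp2 calls were each lost in 8 of 14 alternatives (both without WT replicate 1, 2 or 4 and without SKO replicate 3 or 4, and Pdp2 also without SKO replicate 2), with adjusted p of 0.0144 to 0.167 and 0.00465 to 0.169. Scaled by library size alone (added after the data were seen), which raised the median of all genes by 0.17 and moved the share of called genes that were higher from 52% to 70.6%, Pdk2 was at -0.23 (adjusted p = 0.167), Pdp2 at -0.38 (adjusted p = 0.169) and Dlat at 0.38 (adjusted p = 0.0478), and Pdhx, Pdhb and Pdha1 turned positive without being called.

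In DKO against WT only Pdk4 was called, 1 of 9 higher and 0 lower, against 10.5% of 14448 genes, 6.06% higher and 4.39% lower, and the livers did not overlap for 2 of 9 genes, Pdk4 and Pdk2, against 16.9%. The median was -0.13 over the 9 genes. With all livers DESeq2 called Pdp2 lower as well, at -0.84 (adjusted p = 0.0308). DKO replicate 4 was singled out by its values of these same genes, so calls made without it follow in part from that choice. Leaving out DKO replicate 1, 2 or 3 instead left only Pdk4 called, with 398, 379 and 288 calls over all genes. Without DKO replicate 4, 5 of 9 genes were called, against a background of 35.9%. Pdk4 was then at 6.77 ± 0.27 (adjusted p = 1.0e-07), Pdp2 at -1.19 ± 0.13 (adjusted p = 4.7e-05) and Pdk1 at -0.85 ± 0.14 (adjusted p = 7.7e-04). Pdk2 was at -0.59 ± 0.10 (adjusted p = 9.9e-04) and Pdp1 at 1.30 ± 0.38 (adjusted p = 0.0208). In the same fit 5 of 7 macrophage markers were lower and 1 higher, and 4 of 6 hepatocyte markers and 2 of 5 cholangiocyte markers were lower with 0 higher. Of 6 stellate markers 1 was higher, and of 4 erythroid markers 1 was lower. The part of these cells in the 5 calls was not tested. DKO replicate 4 held Pdk1 at 1.07 and Pdp2 at 0.951 of the WT mean, and its Xist counts, low Atf3 counts and high hepatocyte marker sum accompanied these values, and their part in the result was not tested. Library size alone moved the share of called genes that were higher in this comparison from 58% to 79.2%.

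**Figure D2:**
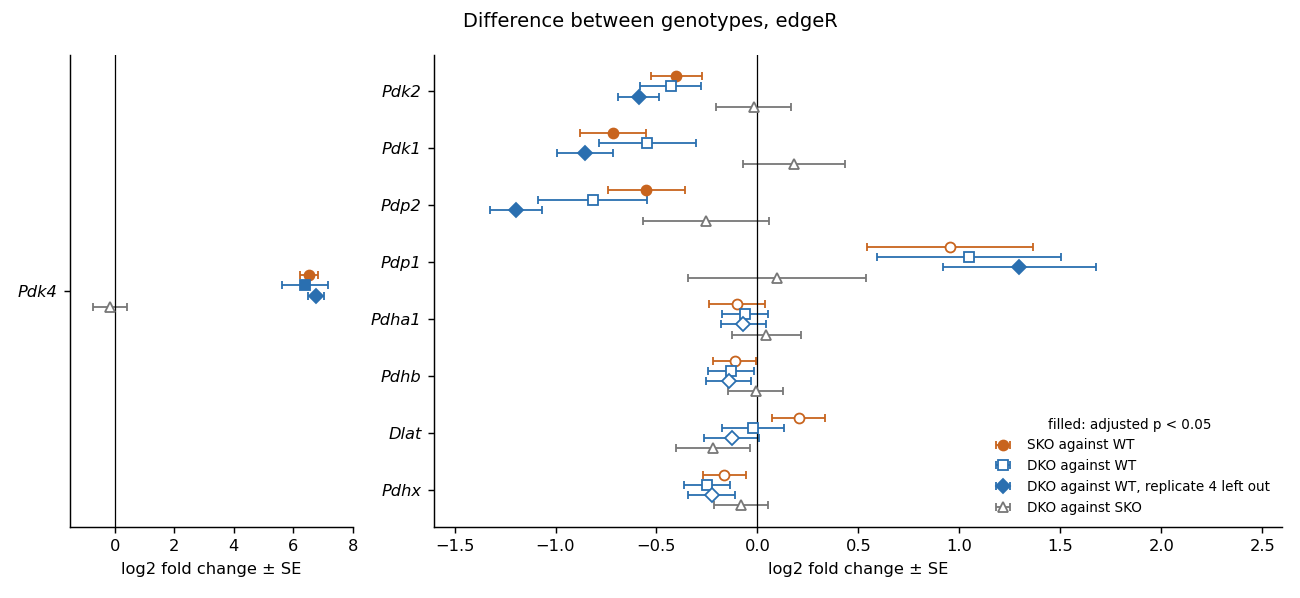
Log2 fold change ± SE of the 9 tested genes, with Pdk4 on its own axis. Circles are SKO against WT, squares DKO against WT, diamonds DKO against WT without DKO replicate 4 and triangles DKO against SKO, and filled symbols have an adjusted p under 0.05. Pdk4 was at 6.54 and 6.40 in the knockouts and -0.15 between them.

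Whether loss of Atf3 on top of Cpt2 altered these genes was asked of the DKO and SKO livers directly. By edgeR 0 of 9 genes were called (adjusted p from 0.910 to 0.999), where it called 0.0209% of 14363 genes. An unadjusted p under 0.05 was found for 0 of 9, against 932 of the 14363 genes. Livers did not overlap for 0 of the 9, against 4.00% of all genes. DESeq2 also called 0 of the 9, and 91 of 16699 genes in all. Pdk4 differed by -0.15 ± 0.58 on the log2 scale. Without DKO replicate 4, Pdk4 was at 0.23 ± 0.22 (adjusted p = 0.925) and 0 of 9 were called against 0.103%, and the lowest unadjusted p was 0.0126, for Pdp2 at -0.65 ± 0.22 (adjusted p = 0.496). The SKO and DKO comparisons share their WT livers.

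The make-up of the kinase mRNA differed between the groups. Per kilobase, Pdk2 accounted for 77.0% ± 3.09 (SD, n = 4) of the 4 kinases in WT livers, Pdk1 for 18.3% ± 2.69 and Pdk4 for 4.36% ± 1.68. In SKO livers Pdk4 accounted for 84.9% ± 2.54, Pdk2 for 12.6% ± 2.37 and Pdk1 for 2.41% ± 0.531. In DKO livers Pdk4 accounted for 73.7% ± 29.7, and for 29.2% in replicate 4, where Pdk2 made up 55.9% and Pdk1 14.8%. The summed kinases came to 52.1 ± 1.95 CPM per kilobase in WT livers, 245 ± 51.8 in SKO livers and 227 ± 109.5 in DKO livers, with replicate 4 at 69.1. Without Pdk4 the other kinases summed to 49.8 ± 1.97, 36.1 ± 3.86 and 36.1 ± 8.74 CPM per kilobase, DKO replicate 4 being at 48.9, inside the WT range, and the other DKO livers at 29.4 to 34.4. Summed kinases over summed phosphatases were 4.29 ± 0.635 in WT, 29.0 ± 7.09 in SKO and 40.9, 53.6, 46.6 and 5.92 in DKO replicates 1 to 4. These sums compare mRNA, not enzyme activity or phosphorylation, which were not measured here.

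**Figure D3:**
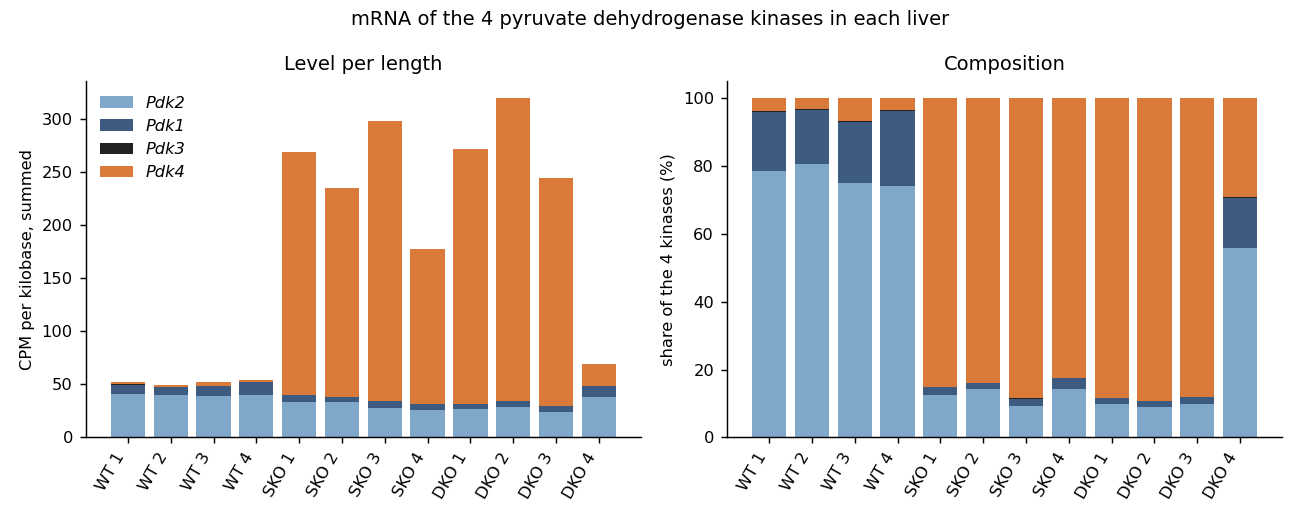
Stacked CPM per kilobase (left) and percentage (right) of Pdk2, Pdk1, Pdk3 and Pdk4 in each liver. Pdk4 was 3.29% to 6.86% of the kinase mRNA in WT livers and 82.4% to 88.3% in SKO livers, and DKO replicate 4 was at 29.2%.

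Within a liver, per kilobase, the order in WT was Pdk2 (40.1 ± 0.74), Pdhb (33.1 ± 1.85), Pdha1 (29.5 ± 1.04), Pdp2 (12.0 ± 1.45), Dlat (11.2 ± 0.996), Pdk1 (9.56 ± 1.76), Pdhx (8.66 ± 0.61), Pdk4 (2.27 ± 0.887), Pdp1 and Pdk3. The first 3 did not overlap between genes, while Pdp2, Dlat, Pdk1 and Pdhx each overlapped their neighbour in this order, as did Pdp1 and Pdk3. In SKO livers Pdk4 came first (209 ± 49.7), above Pdhb, Pdk2 and Pdha1 (30.3, 30.0 and 27.3), which overlapped.

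The genes whose profile over the 12 livers was most like each kinase, by Pearson's r of log2 CPM among 9791 genes of at least 5 CPM on average, were named by a rule and are a description only, since the points share genotype and library. For Pdk4 they were Endod1 (r = 0.983), Gm47528 (r = 0.981) and Cln6 (r = 0.979). For Pdk2 they were Dhrs11 (0.969), Upp2 (0.962) and Ctdsp1 (0.960), and for Pdk1 they were Stard4 (0.966), Timm29 (0.964) and Itm2b (0.957). Pdk3 reached at most 0.820, with Myo7a, and counts that low carry little of a profile.

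Genes around the complex were followed in lists made with earlier results of these data known. The 2 other complex genes tested, Dld and Pdpr (a phosphatase regulatory subunit), were called in neither comparison with WT, where 32.1% (SKO) and 10.5% (DKO) of all genes were. Their log2 fold changes were -0.15 ± 0.14 and -0.74 ± 0.37 in SKO livers (adjusted p = 0.461 and 0.153). In DKO livers Dld (at most 147 CPM) and Pdpr (at most 36.5 CPM) lay below all WT livers (at least 149 and 40.5 CPM). For 16.9% of all genes DKO and WT livers did not overlap. Of 16 pyruvate supply and use genes, 5 were higher and 3 lower in SKO livers, against 16.7% and 15.4% of all genes. The monocarboxylate transporter Slc16a1 rose by 1.24 ± 0.16 on the log2 scale (adjusted p = 1.4e-04), the malic enzyme Me1 by 1.08 ± 0.16 (adjusted p = 4.2e-04) and Pck2, the mitochondrial PEP carboxykinase, by 1.80 ± 0.26 (adjusted p = 3.2e-04), and the alanine aminotransferase Gpt fell by 1.01 ± 0.13 (adjusted p = 1.8e-04). Mpc1, a subunit of the mitochondrial pyruvate carrier that feeds the complex and chosen after its values were seen, rose by 1.15 ± 0.18 (adjusted p = 6.8e-04). In DKO livers 4 of 16 were higher and 0 lower, against 6.06% and 4.39% of all genes, among them Slc16a1 at 1.27 ± 0.20 (adjusted p = 0.00973).

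Of 9 lipoate and thiamine genes, which supply the cofactors of E2 and E1, 2 were higher and 3 lower in SKO livers (16.7% and 15.4% of all genes) and 1 higher and 0 lower in DKO livers (6.06% and 4.39% of all genes). The lipoyl transferase Lipt2 was at 1.18 ± 0.21 (adjusted p = 0.0014) and the mitochondrial acyl carrier protein Ndufab1 at 0.52 ± 0.12 (adjusted p = 0.00657) in SKO livers. Of 8 genes of the sister complexes, 1 was higher and 4 were lower in SKO livers, against the same shares of all genes. Dbt, the E2 of the branched-chain complex, was at -1.44 ± 0.16 (adjusted p = 5.7e-05), Dhtkd1, an E1 component of lysine breakdown, at -1.43 ± 0.20 (adjusted p = 2.7e-04), the branched-chain kinase Bckdk at 0.51 ± 0.15 (adjusted p = 0.0205) and the branched-chain phosphatase Ppm1k at -0.61 ± 0.16 (adjusted p = 0.0126). In DKO livers Dhtkd1 was lower too, at -1.28 ± 0.28 (adjusted p = 0.0244), and 0 of 8 higher.

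Of 8 genes that use acetyl-CoA, 3 were higher and 1 lower in SKO livers, against 16.7% and 15.4% of all genes, and 3 were higher and 1 lower in DKO livers, against 6.06% and 4.39%. Acacb, the acetyl-CoA carboxylase of the outer mitochondrial membrane, was at 2.25 ± 0.16 in SKO livers (adjusted p = 3.0e-06), Crat at 1.63 ± 0.16 (adjusted p = 2.2e-05), Cs, citrate synthase, at 1.08 ± 0.15 (adjusted p = 2.8e-04) and Acly, ATP citrate lyase, at -1.20 ± 0.14 (adjusted p = 1.0e-04). Of 12 regulators commonly linked to the kinases, 1 was higher and 2 lower in SKO livers, 3 called against a background of 32.1%: Hif1a at 0.65 ± 0.15 (adjusted p = 0.00521), Insr at -0.58 ± 0.17 (adjusted p = 0.0205) and Nr4a1 at -1.80 ± 0.53 (adjusted p = 0.0231). Ppara, the fatty acid receptor, named after its values were seen, was at 0.23 ± 0.22 (adjusted p = 0.476). In DKO livers, where 10.5% of all genes were called, Hif1a was higher, at 0.54 ± 0.14, and Insr lower, at -0.50 ± 0.13 (adjusted p = 0.0375 and 0.0443).

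Of 15 PPAR alpha and fasting targets tested, a list that holds genes Pdk4 is commonly grouped with, 13 were higher and 0 lower in SKO livers, against 16.7% and 15.4% of all genes, with a median log2 fold change of 1.23 against 0.03 over all genes. Acot1 was at 3.39 ± 0.22 (adjusted p = 1.8e-06), Plin2 at 3.15 ± 0.21 (adjusted p = 2.4e-06), Acot2 at 4.89 ± 0.33 (adjusted p = 2.4e-06) and Fgf21 at 4.50 ± 0.37 (adjusted p = 8.1e-06). Angptl4, another such target named after its values were seen, was at 0.44 ± 0.28 (adjusted p = 0.259). In DKO livers 5 of 14 were higher and 0 lower, against 6.06% and 4.39%, and replicate 4 was far below the mean of the group for some of them, such as Ehhadh (981 against 6456 CPM, chosen after its values were seen). Of 11 HIF targets, with which Pdk1 is commonly listed, 1 was higher and 2 lower in SKO livers (32.1% of all genes called) and 1 higher and 1 lower in DKO livers (10.5% of all genes called). In SKO livers P4ha2 was at 1.52 ± 0.28 (adjusted p = 0.00153), Pfkfb3 at -1.64 ± 0.48 (adjusted p = 0.0208) and Vegfa at -0.38 ± 0.13 (adjusted p = 0.0406). Without DKO replicate 4, a liver singled out after its values were seen, 35.9% of all genes were called in DKO against WT. In that fit 12 of 15 PPAR alpha and fasting targets were higher and 1, Lpin1, was lower, at -2.41 ± 0.66 (adjusted p = 0.0155). Of the 16 pyruvate genes 4 were then higher and 3 lower, of the 9 cofactor genes 1 and 3, of the 8 sister complex genes 1 and 4, and of the 8 acetyl-CoA genes 3 and 2. Of the 12 regulators 1 was higher and 4 lower, of the 11 HIF targets 2 and 3, and Pdpr was lower, at -0.76 ± 0.27 (adjusted p = 0.0494). Between DKO and SKO livers, with or without that liver, 0 genes of any of these lists were called, against 0.0209% of all genes with it and 0.103% without it.

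**Figure D4:**
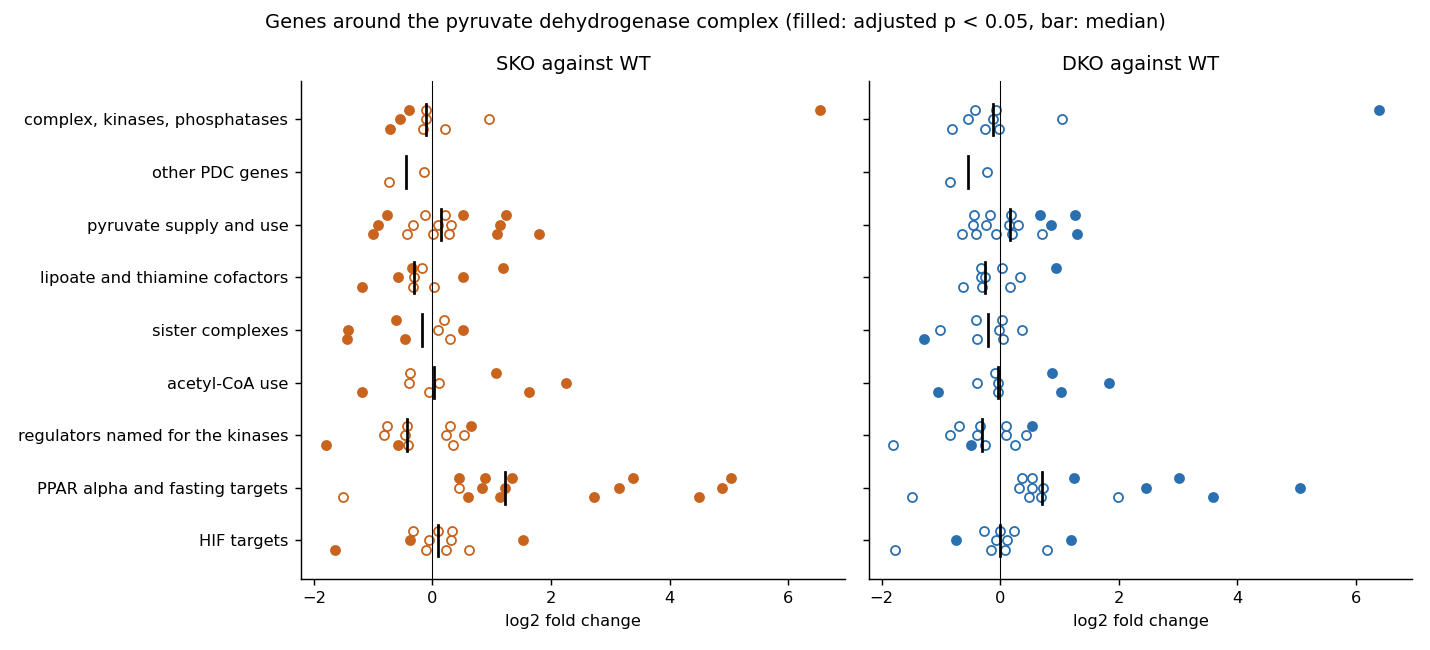
Log2 fold change of every tested gene of each list in SKO against WT (left) and DKO against WT (right), with filled points at an adjusted p under 0.05 and a bar at each median. The PPAR alpha and fasting targets had a median of 1.23 in SKO and 0.70 in DKO livers, and Pdk4 is the rightmost point of the top row at 6.54 and 6.40.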

How the data were processed

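Total RNA of 12 livers was sequenced, and the authors deposited raw counts per gene, a gene length and FPKM. The submitters' notes list HISAT2, GRCm38 and mm10 without roles, the counter and its strand setting being not given in the sources used here. Gene positions are as deposited and were read as GRCm39, since 8 of 10 members lie elsewhere in GENCODE M21 (GRCm38). The deposited FPKM served only as an alternative for the kinase shares. Files with the authors' own fold changes and p-values were not used.

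Each pair of groups was fitted on its own 8 livers with edgeR 4.0.16 (filterByExpr, TMM, quasi-likelihood test, two-sided, Benjamini-Hochberg over all genes, adjusted p under 0.05) in R 4.3.3, checked on simulated data. CPM used TMM factors over all 12 livers, and CPM per kilobase divided by the deposited length. Alternatives were DESeq2 1.42.0, another normalization, no filter, all livers in one fit, a replicate block, left-out livers and library size alone. The named genes were all 10 members, up to 4 genes of each list by smallest p, and the 3 most alike to each kinase. Some genes of a list are not reported here. Members and lists were chosen with earlier results of these data known. Total counts were 14710304 to 20030055 per liver.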

Additional observations from a re-analysis of the deposited data

Results flagged for a closer look

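In 3 of the 30 sets of 4 livers tested, one liver lay farther from the others than Dixon's limit for 4 values allows, where chance alone gives about 1 in 20. Pdk4 was 12.6 CPM in WT replicate 3, above 5.72 to 6.82 CPM in the other WT livers. Pdk1 was 79.4 CPM and Pdp2 was 64.9 CPM in DKO replicate 4, above the other DKO livers in both. DKO replicate 4 also had 20855 Xist counts and 5 Atf3 counts, and the part of these in its values was not tested.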

How the results depend on the processing

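The number of genes called was 4 in SKO against WT, 1 in DKO against WT and 0 in DKO against SKO. It was 2 in SKO against WT with all 12 livers in one fit, 2 in DKO against WT with DESeq2, and 0 in every alternative of DKO against SKO. With one replicate left out it was 2 to 4 in SKO against WT and 1 to 5 in DKO against WT, the 5 coming without DKO replicate 4, where calls over all genes were 5253, and as few as 244 without WT replicate 2. A replicate block gave 4, 1 and 0, the same as without it, and changed no call of a member. Over all genes it gave 4111, 691 and 0 calls against 4576, 1510 and 3. Same-numbered livers did not deviate together (correlations from -0.42 to 0.15), which gives no sign of a pairing by number but does not exclude shared litters. Pdk3, at 1 to 28 counts, was too low to be tested.

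The signs that changed all belonged to differences that were not called. Under library size alone they were Pdhx 0.0129, Pdhb 0.0609 and Pdha1 0.0777 in SKO against WT and Dlat 0.136, Pdhb 0.0424 and Pdha1 0.107 in DKO against WT, the whole table having shifted by 0.17. With both livers with Xist counts left out, DKO against SKO was 0.361 for Pdk4 and -0.0661 for Pdk1. With one replicate left out, Pdha1 was -0.166 to 0.01997 in SKO against WT, Dlat -0.13 to 0.10 and Pdha1 -0.12 to 0.0024 in DKO against WT. In DKO against SKO, Pdp1 was -0.26 to 0.51, Pdk2 -0.187 to 0.0673, Pdhb -0.0682 to 0.0323, Pdha1 -0.0776 to 0.107, Pdk4 -0.40 to 0.23 and Pdk1 -0.14 to 0.29.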
